A study of Mus musculus with 5 samples.

Results

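Apln-positive endothelial cells of the adult mouse heart were chosen by a rule on single-cell RNA values. A cell had to carry Apln at 1 or more on the deposited natural log scale, together with Fabp4 and either Cdh5 or Pecam1 above 0. Npr3 had to lie under 1.5, and Prox1, Pdgfra and Ptprc had to be at 0. The rule was met by 224 of the 10961 cells in 5 libraries. Without regard to Apln, 2387 cells passed the same gate. Cdh5 and Pecam1 encode junction proteins of all endothelium, and Fabp4 a lipid-binding protein of capillary endothelium. Npr3, a natriuretic peptide receptor, marks endocardium, Prox1 is a lymphatic transcription factor, Pdgfra a fibroblast receptor and Ptprc the leukocyte phosphatase CD45. The cells had been proposed as tip-like, with Nes, Kit, Rflnb and Sparcl1 as further markers. They were described against 1795 reference cells of the same libraries, which passed the same gate with Apln at 0 and Gpihbp1 above 0. Gpihbp1 anchors lipoprotein lipase on capillary endothelium. Apln lies at chrX:48025146-48034853 on build GRCm38.p6.

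The libraries hold interstitial cells of adult mouse hearts, freed by collagenase, cleared of cardiomyocytes and sorted by flow cytometry on surface cKit and DDR2, and captured in droplets with the 10x Genomics 3′ chemistry. The cKit-/DDR2+ sort has 1 library, cKit+/DDR2- has 2 (replicates 1 and 2), and the double-positive cells were parted into cKit+/DDR2+/CD45- and cKit+/DDR2+/CD45+ with 1 library each. cKit, encoded by Kit, is the receptor for stem cell factor, DDR2 a collagen receptor of fibroblasts, and CD45 the common leukocyte antigen. Strain, age, genotype and the number of animals are not given in the sources used here, so p-values measure the spread between these 5 libraries, which may be partly technical.

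Tip cells lead a growing capillary sprout. They extend filopodia toward vascular endothelial growth factor (VEGF), signal to their neighbours through Notch ligands and degrade and rebuild the basement membrane, while the stalk cells behind them divide. Apln encodes apelin, a secreted peptide ligand of the receptor Aplnr, which is raised in sprouting endothelium and is low in most resting capillaries of the adult heart.

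Values for the 5 libraries are given in 1 order throughout: cKit-/DDR2+, cKit+/DDR2- replicate 1, cKit+/DDR2- replicate 2, cKit+/DDR2+/CD45- and cKit+/DDR2+/CD45+. The libraries held 2280, 436, 3020, 1327 and 3898 cells and between 4047326 and 44847778 UMIs (unique molecular identifiers, which tag single captured transcripts). Of the cell barcodes, 190 occur both in cKit+/DDR2- replicate 1 and in cKit+/DDR2+/CD45+, while other pairs of libraries share 1 to 3. In cKit+/DDR2+/CD45+ these barcodes had a median of 622.5 UMIs, against 12133.5 in the other library, and their depths in both libraries were correlated (r = 0.915 of log depth over the 190 barcodes, as a description). They include 41 of the 131 gated cells of cKit+/DDR2+/CD45+, 7 of its 31 Apln-positive cells and 5 of its 50 reference cells. Of 113 genes with alternatives, 112 kept their call, or lack of one, without these barcodes, and Bmp6 did not. Ptprc is not listed in cKit+/DDR2+/CD45-, so its limit removed no cell there, while in cKit+/DDR2+/CD45+ it left only cells without Ptprc RNA.

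Apln-positive cells numbered 62, 47, 24, 60 and 31 in the 5 libraries. Their share of the gated endothelial cells was 5.50% (95% Clopper-Pearson interval 4.24 to 6.997) in cKit-/DDR2+, 33.3% (25.6 to 41.8) in cKit+/DDR2- replicate 1 and 6.28% (4.07 to 9.20) in replicate 2. It was 9.90% (7.64 to 12.6) in cKit+/DDR2+/CD45- and 23.7% (16.7 to 31.9) in cKit+/DDR2+/CD45+. The share was thus high in 1 library of the cKit+/DDR2- sort and low in the other, so the replicates of that sort spanned nearly the whole range of the 5 libraries. The other 3 sorts have a single library each, so sorts were not tested against each other. Intervals cover counting error only. Without the shared barcodes the share in cKit+/DDR2+/CD45+ was 26.7%. Thinning to 2000 UMIs left out shallower cells and kept 1028, 135, 362, 558 and 67 gated cells. In cKit+/DDR2+/CD45+ that was 67 of 131, so its thinned share describes only the deeper cells. After thinning, the shares with at least 1 Apln UMI were 4.28%, 25.2%, 4.97%, 7.89% and 31.3%, with the order of the lower 3 libraries unchanged and the upper 2 exchanged. Among gated cells with Gpihbp1 they were 5.83%, 35.9%, 7.77%, 10.5% and 32.5%.

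**Figure D1:**
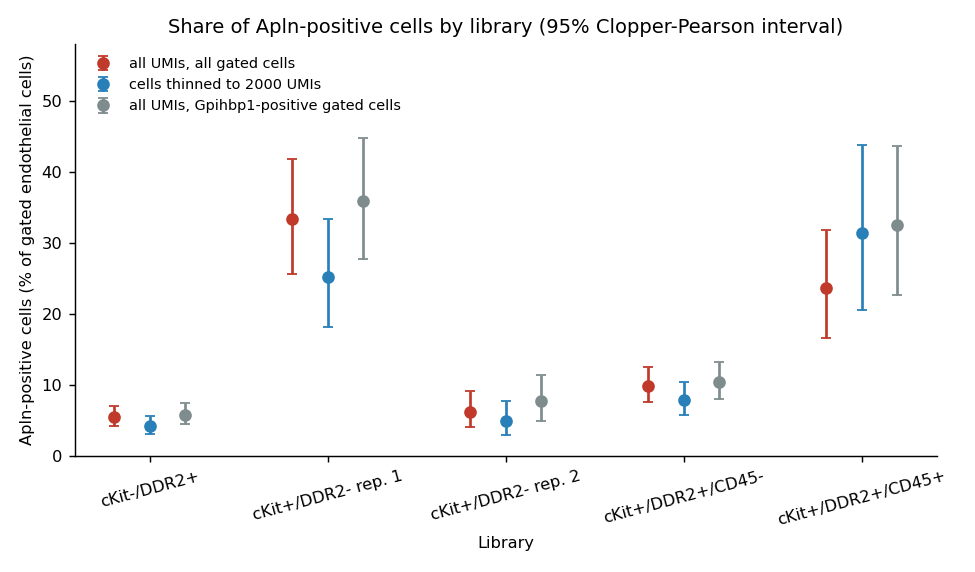
Share of Apln-positive cells (y axis, % of gated endothelial cells) in each of the 5 libraries (x axis), with 95% Clopper-Pearson intervals, for all gated cells, for cells thinned to 2000 UMIs and for gated cells with Gpihbp1. The shares of cKit+/DDR2- replicate 1 (33.3%) and cKit+/DDR2+/CD45+ (23.7%) lie above those of the other 3 libraries under each choice.

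Apln was rare in most of the other gates that were counted. Endothelial cells that failed the rule only through Fabp4, and pericytes, were not counted. Cells without Cdh5 and Pecam1 formed a fibroblast gate (Pdgfra above 0) and a leukocyte gate (Ptprc above 0), and endothelial cells with Npr3 at 1.5 or more or with Prox1 formed the endocardial and lymphatic gates. In cKit-/DDR2+, 3 of 712 fibroblast-gate cells (0.421%, median 14039.5 UMIs) carried an Apln UMI and none reached 1, against 93 of 1127 gated endothelial cells (8.25%, median 5208 UMIs). Its leukocyte gate held only 13 cells, of which 1 (7.69%) carried an Apln UMI and none reached 1. In cKit+/DDR2+/CD45+, 19 of 3006 leukocyte-gate cells (0.632%) carried 1 or more UMIs and 1 cell reached 1. Endocardial-gate cells of cKit+/DDR2- replicate 2 had Apln in 1 of 1178 cells (0.0849%, median 9724 UMIs). In cKit+/DDR2- replicate 1, where the gated share was highest, 2 of 146 endocardial-gate cells (1.37%) and 4 of 96 lymphatic-gate cells (4.17%) carried an Apln UMI, and 1 of them reached 1. The shares in these other gates were thus below those of gated endothelial cells in each of these libraries, although their cells were deeper.

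Within the 5 libraries Apln stood at 410.5, 680.3, 576, 599 and 793 CPM (UMIs summed over the cells of a class and scaled to one common total) in Apln-positive cells and at 0 in reference cells, as the rule fixes. The level was lowest in cKit-/DDR2+, where 27 of 62 cells entered the class on a single Apln UMI, against 5 of 47, 4 of 24, 5 of 60 and 6 of 31 in the other libraries. The 4 further markers were part of the proposal, so their levels are described without a test and give it no separate support. Nes encodes nestin, an intermediate filament of progenitors and young vessels. It stood at 387, 578, 345, 426 and 580.3 CPM in Apln-positive cells and 296, 227, 114, 211 and 228 CPM in reference cells, and was the higher in all 5 libraries. Kit, the sorted receptor, stood at 55.7, 226, 129.5, 151 and 121 CPM against 11.1, 22.7, 19.8, 26.4 and 35.99 CPM. For Kit the lowest Apln-positive value was that of cKit-/DDR2+. Rflnb, a filamin-binding protein, stood at 522, 716, 691, 834 and 714 CPM against 398, 303, 288, 473 and 444 CPM. Sparcl1, a secreted matrix-associated protein of capillaries, stood at 2085, 2554, 1794, 1892 and 2187 CPM against 1559.8, 1474, 1055, 1522 and 1635 CPM, again higher in all 5. Mean log2 differences of CPM + 10 were 2.08 for Kit, 1.10 for Nes, 0.86 for Rflnb and 0.54 for Sparcl1. With 50 CPM added in place of 10, the Kit difference was 1.29.

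**Figure D2:**
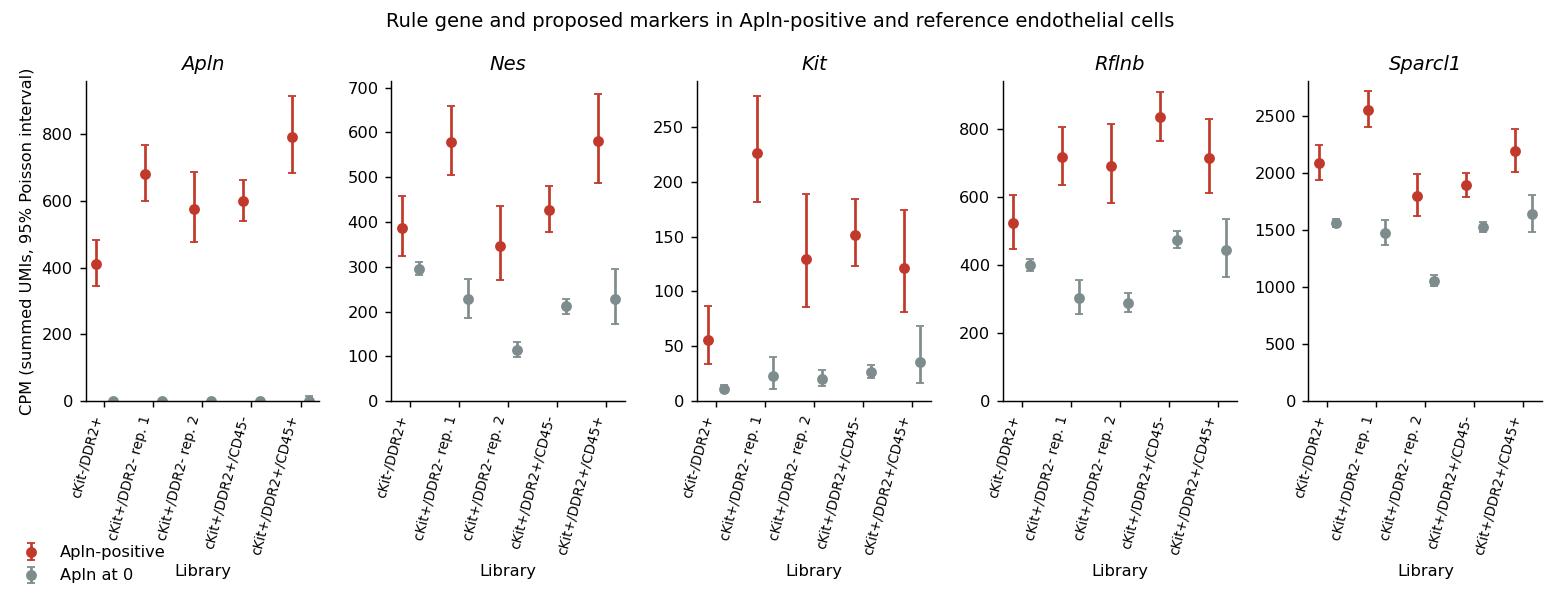
Levels (y axis, CPM with 95% Poisson intervals, each panel from 0) of Apln and the 4 proposed markers in Apln-positive cells (red) and reference cells (grey) of the 5 libraries (x axis). The red point lies above the grey point in every library, and Kit spans 55.7 to 226 CPM in Apln-positive cells against 11.1 to 36.0 CPM in reference cells.

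Of the 224 Apln-positive cells, 109 (48.7%) carried a Kit UMI, and they made up 37.1% of the 294 Kit-carrying gated cells over all libraries (18.5%, 66.0%, 27.5%, 33.9% and 59.3% by library). By library the share of Apln-positive cells with Kit was 19.4%, 66.0%, 45.8%, 65.0% and 51.6%, so it was lowest in the library sorted as cKit-. Among reference cells it was 5.01%, 13.7%, 7.69%, 11.5% and 8%. The fibroblast gate of cKit-/DDR2+, which should lack Kit, had it in 0.562% of cells at a median of 14039.5 UMIs, and the endocardial gate of cKit+/DDR2- replicate 2 in 5.43% at 9724 UMIs. After thinning cells to 3000 UMIs, which left out shallower cells, Kit was detected in 12.5%, 57.8%, 18.2%, 27.1% and 25% of Apln-positive cells and in 3.10%, 6.45%, 3.56%, 6.11% and 3.12% of reference cells. All 4 further markers together were found in 9.68%, 61.7%, 29.2%, 58.3% and 35.5% of Apln-positive cells, against 2.30% to 6.39% of reference cells, at the unthinned depths. In cKit-/DDR2+, Nes was detected in nearly the same share of both classes (61.3% against 61.4%) and Rflnb in a smaller share of Apln-positive than of reference cells (66.1% against 69.1%). In the other libraries Nes was found in 64.5% to 95.7% of Apln-positive cells against 36.5% to 56.2% of reference cells, and Rflnb in 83.9% to 98.3% against 52.1% to 74.2%.

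Depth differed between the classes. Median UMIs per cell were 5004, 8210, 7430.5, 9760 and 7733 in Apln-positive cells and 5110, 6187, 6016.5, 5992.5 and 4949 in reference cells. The share of mitochondrial UMIs was higher in Apln-positive cells of all 5 libraries, at 5.60%, 4.67%, 3.05%, 2.69% and 5.18% against 4.59%, 4.13%, 2.57%, 2.56% and 5.01%. The part of depth and mitochondrial share in the differences below was not tested directly, but counts after thinning to 3000 UMIs and in cells of at least 5000 UMIs are given.

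Apln-positive and reference cells were then compared across all genes. UMIs were summed per class and library, and log2(CPM + 10) was fitted with limma, with the library as a block and a two-sided test adjusted by Benjamini-Hochberg over all genes tested. Genes of the rule and the 4 markers were left out of the test. Of 3105 genes with a mean of at least 50 CPM, 664 passed an adjusted p of 0.05 (21.4%). The mean was taken over the sums of both classes, so a gene low in either class could enter through the other. Named below as lower, Timp4, Ramp3, Nr2f2, Bmp6, H2-Aa, Gbp4, Sh2b3 and Bnip3 had Apln-positive means under 50 CPM. They entered through the reference class. The share called is the background for the list counts below. In Apln-positive cells 303 genes were higher (9.76%) and 361 lower (11.6%), and 580 of the 664 had the same sign in all 5 libraries. At least 2-fold differences were held by 45 of the higher and 80 of the lower genes, and the median over all tested genes was -0.01. At 3000 UMIs per cell 154 genes were higher and 183 lower, and in cells of at least 5000 UMIs 302 and 347. Without the shared barcodes the counts were 301 and 351. Without cKit+/DDR2+/CD45- they fell to 190 and 216, and left out in turn the other libraries gave 222 to 358 higher and 247 to 381 lower.

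The size of the difference varied by library. Over the 303 higher genes the median log2 difference was 0.33, 0.59, 0.74, 0.64 and 0.58, and over the 361 lower genes -0.32, -0.71, -0.86, -0.68 and -0.82. Both medians were smallest in cKit-/DDR2+. With Apln-positive cells limited to those of at least 2 Apln UMIs, the medians in that library were 0.38 and -0.42, still the smallest of the 5. These genes were called on the same libraries, so the medians describe their spread and support no further claim.

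By the rule for named genes, which sets the markers apart, the 12 highest differences were those of Pgf, Col15a1, Mest, Adm, Nid2, Fscn1, Lxn, Ift122, Tmsb10, Dpysl3, Pde4b and Ppp1r14b. Of these, Pgf, Col15a1, Mest, Adm, Nid2, Lxn and Ift122 had reference means of 7.15 to 39.8 CPM. They passed the limit of 50 CPM only through the Apln-positive class. Pgf, placental growth factor, which binds the VEGF receptor Flt1, stood at 11.7, 331, 110.4, 103 and 309 CPM in Apln-positive cells and 8.56, 10.3, 3.19, 13.7 and 0 CPM in reference cells. It was high in 4 libraries and near the reference in cKit-/DDR2+. The log2 difference was 2.95 ± 0.65 (SE, limma adjusted p = 0.0215), and without cKit+/DDR2- replicate 2 the adjusted p was 0.0792, so the call was lost. Reference cells of cKit+/DDR2+/CD45+ had no Pgf UMI, in a sum where 3 UMIs would stand at 11.995 CPM. Without cKit-/DDR2+ the difference was 3.63. Col15a1, a collagen of the basement membrane zone, stood at 117, 97.6, 149, 196 and 205 CPM against 32.05, 18.6, 16.6, 46.6 and 35.99 CPM, with no overlap (2.03 ± 0.17, limma adjusted p = 5.38e-06). Adm, the vasodilator peptide adrenomedullin, stood at 99.7, 241, 119.95, 128 and 205 CPM against 24.5, 65.98, 22.3, 26.4 and 59.98 CPM, again with no overlap (1.79 ± 0.14, limma adjusted p = 5.38e-06). Mest, an imprinted gene of the hydrolase family, rose by 1.87 (limma adjusted p = 0.00115).

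Fscn1 encodes fascin, the actin-bundling protein of filopodia. It stood at 214, 529, 485, 582 and 497 CPM in Apln-positive cells and 94.95, 115, 119, 140.2 and 139.9 CPM in reference cells. Every Apln-positive value exceeded every reference value, and the lowest was again that of cKit-/DDR2+. The log2 difference was 1.78 ± 0.14 (limma adjusted p = 5.38e-06). At 3000 UMIs per cell Fscn1 was detected in 43.8%, 82.2%, 68.2%, 69.5% and 58.3% of Apln-positive cells against 25.7%, 33.9%, 30.2%, 27.7% and 18.8% of reference cells. The remaining genes of the highest 12 were Nid2 (1.78), Lxn (1.66), Ift122 (1.59), Tmsb10 (1.45), Dpysl3 (1.44), Pde4b (1.36) and Ppp1r14b (1.31), with limma adjusted p between 3.56e-05 and 0.00435. Tmsb10 encodes an actin-sequestering thymosin, Dpysl3 a protein of growth cones, and Pde4b a cyclic AMP phosphodiesterase.

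**Figure D3:**
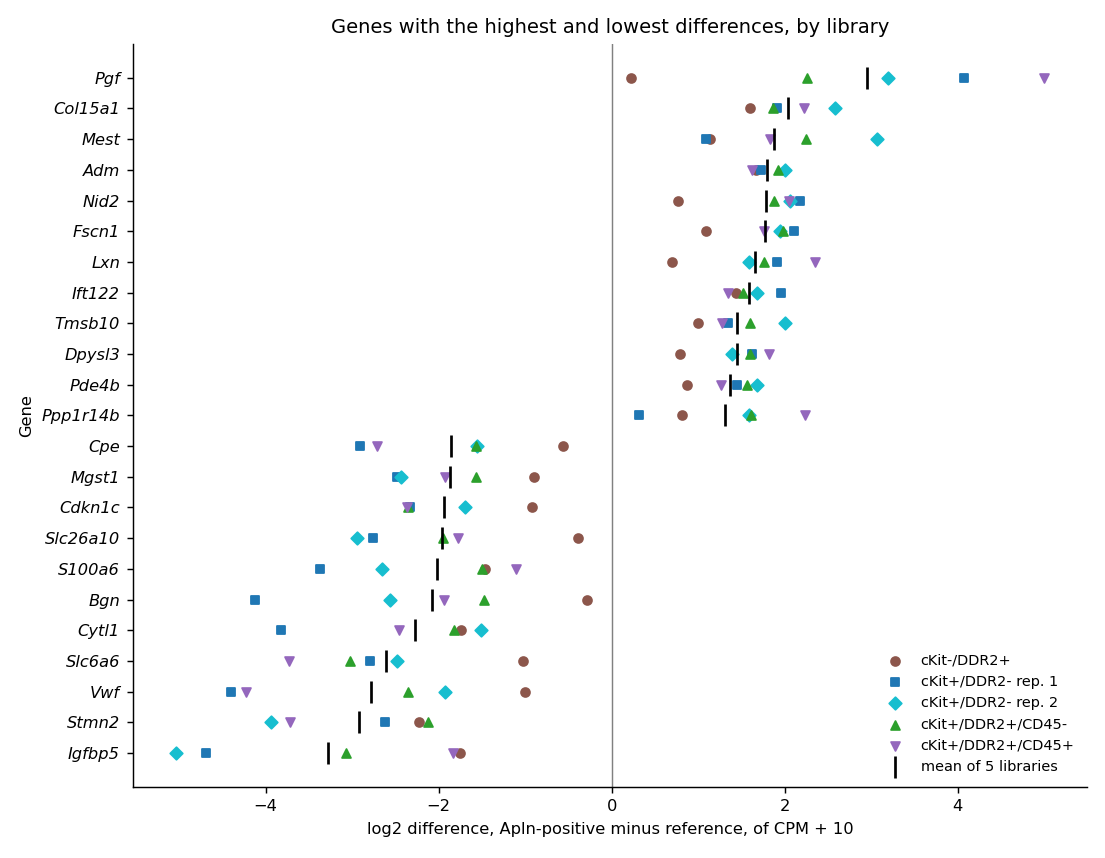
Log2 differences (x axis, Apln-positive minus reference, of CPM + 10) of the 12 genes with the highest and 11 of the 12 with the lowest values among genes called with the same sign in all 5 libraries (y axis). Coloured symbols are the 5 libraries and black ticks their mean; for Pgf the symbol of cKit-/DDR2+ lies at 0.23, against 2.26 to 4.995 for the others.

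Some genes listed for tip cells were higher in Apln-positive cells and others were not. The list was chosen with earlier results of these data known, so its counts give the proposed tip-like character no separate support. Of 19 genes listed for tip cells, 11 besides Apln passed the limit of 50 CPM: 6 were higher in Apln-positive cells and 5 were not called, and the median log2 difference was 0.90 against -0.01 over all tested genes. Of 6 further genes of the list tested at a limit of 20 CPM, 1 was higher (Angpt2), 1 was lower (Igfbp3) and 4 were not called. The higher genes tested at 50 CPM were Nid2, Adm, Mcam, Cd34, Lamb1 and Plxnd1. Of these, Nid2 and Adm had reference means under the limit (37.2 and 39.8 CPM) and entered through the Apln-positive class. Cd34, a sialomucin enriched on filopodia, stood at 698, 1060.2, 672, 782 and 1165 CPM against 450.3, 377, 317, 386 and 424 CPM with no overlap (1.12 ± 0.12, limma adjusted p = 4.51e-05). Plxnd1, a semaphorin receptor of sprouting vessels, stood at 355, 488, 307, 425 and 443 CPM against 207, 200.01, 197, 224 and 216 CPM (0.90 ± 0.11, limma adjusted p = 0.000129). Mcam, an adhesion molecule, stood at 70.4, 272, 86.4, 167 and 188 CPM against 72.3, 70.1, 34.5, 48.3 and 75.97 CPM, higher in 4 libraries and level in cKit-/DDR2+ (1.14 ± 0.23, limma adjusted p = 0.00547).

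Several other genes that define tip cells in textbooks did not pass the test. The Notch ligand Dll4 stood at 106, 198, 125, 94.2 and 154 CPM against 159, 148, 90.6, 113 and 144 CPM (limma adjusted p = 0.939). The main VEGF receptor Kdr had a log2 difference of -0.18 (adjusted p = 0.15), Unc5b of 0.12 (0.69), Pdgfb of -0.14 (0.486) and Nrp1 of -0.08 (0.656), all by limma. Esm1 and Cxcr4, both commonly used tip cell markers, lay under 50 CPM and were tested with a limit of 20 CPM, at which 357 of 6018 genes were higher (5.93%) and 455 lower (7.56%). Esm1 stood at 5.86, 126, 23.99, 84.95 and 138 CPM against 24.9, 2.06, 1.91, 7.20 and 7.997 CPM, so it was higher in 4 libraries and lower in cKit-/DDR2+ (log2 difference 1.87, limma adjusted p = 0.188). Cxcr4 stood at 11.7, 128, 33.6, 27.8 and 113 CPM against 29.1, 22.7, 16.6, 28.8 and 31.99 CPM, furthest above the reference in cKit+/DDR2- replicate 1 and cKit+/DDR2+/CD45+ (adjusted p = 0.3 by limma). Angpt2, an angiopoietin released by sprouting endothelium, was higher in all 5 libraries (1.11, limma adjusted p = 0.00103). Igfbp3, a binding protein of insulin-like growth factors, went the other way and was lower in all 5 (-1.38, limma adjusted p = 0.000485). Flt4, a VEGF receptor, also stood below the reference in every library, with a difference that did not pass (-0.71, adjusted p = 0.0726 by limma), and Plaur had 0.03 (0.952). The cells are named here by Apln, the gene of the rule.

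**Figure D4:**
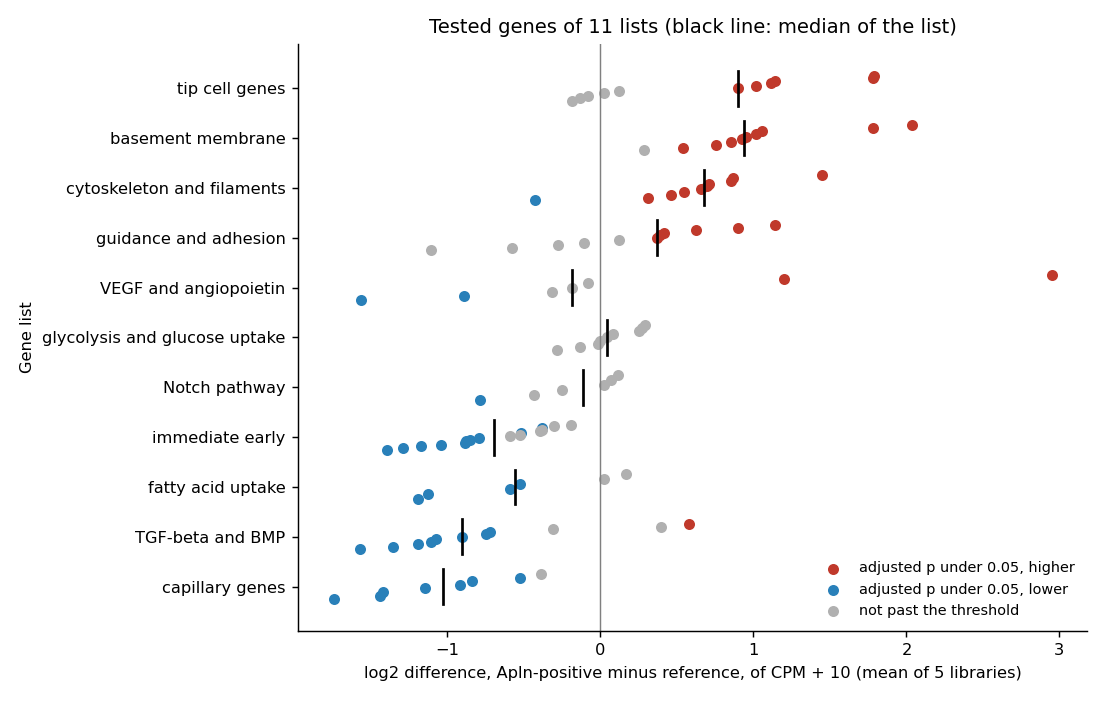
Mean log2 differences (x axis, Apln-positive minus reference, of CPM + 10, 5 libraries) of the tested genes of 11 lists (y axis), red where higher and blue where lower at a limma adjusted p of 0.05, grey otherwise, with the list median as a black line. Tip cell and basement membrane medians lie at 0.90 and 0.94, and those of capillary and TGF-beta and BMP genes at -1.03 and -0.91.

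Ligands and receptors of the peptide and growth factor pathways moved in different directions. Aplnr, the apelin receptor, stood at 311, 228, 76.8, 149.8 and 205 CPM in Apln-positive cells and 192, 129.9, 75.9, 152 and 159.9 CPM in reference cells, higher in 4 libraries by a margin that did not pass the test (log2 difference 0.35, limma adjusted p = 0.0956). Adrenomedullin acts through Calcrl with Ramp2 or Ramp3. While Adm rose, Ramp3 fell from 115, 72.2, 96.4, 94.3 and 63.97 CPM to 82.1, 28.2, 57.6, 30.9 and 8.35 CPM (-1.11 ± 0.21, limma adjusted p = 0.0024), lower within each library. Ramp2 fell by 0.37 (adjusted p = 0.0284 by limma), a call lost without cKit+/DDR2- replicate 1 (0.0516), cKit+/DDR2- replicate 2 (0.0993) or cKit+/DDR2+/CD45- (0.13). Calcrl had a log2 difference of -0.87 (limma adjusted p = 0.0531).

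Of 7 tested VEGF and angiopoietin genes, Pgf and Nrp2 rose and Flt1 and Tek fell. Nrp2, a co-receptor for semaphorins and VEGF-C, stood at 537, 816, 648, 718 and 923 CPM against 272, 394, 295, 349.7 and 239.9 CPM, with no overlap (1.20 ± 0.13, limma adjusted p = 4.51e-05). Flt1, a VEGF and Pgf receptor with weak kinase activity, stood at 733, 221, 355, 303 and 179.5 CPM against 1061, 600.04, 1394, 1089.6 and 828 CPM, lower within each library (-1.57 ± 0.22, limma adjusted p = 0.00171). The angiopoietin receptor Tek fell by 0.89 (adjusted p = 0.00553 by limma). Of 6 tested Notch genes 1 was called, against 21.4% of all tested genes. The receptor Notch1 stood at 158, 116, 115, 114 and 96.02 CPM against 224, 276, 209.9, 181 and 179.9 CPM and fell by 0.79 with no overlap (limma adjusted p = 0.000955). Hey1, a Notch target with low counts, fell by 1.53 in the test at 20 CPM (limma adjusted p = 0.000315), while Jag1 and Lfng were not called. Of 3 VEGF and angiopoietin genes tested at that limit, Angpt2 was higher, Vegfc lower (-1.46, limma adjusted p = 0.000454) and Flt4 not called. Kitl, the ligand of Kit, stood at 551, 426, 479.8, 459 and 459 CPM against 788, 503, 716, 786 and 528 CPM and fell by 0.45 (0.00803 by limma, and 0.0576 without cKit+/DDR2+/CD45-), and Sh2b3, an adaptor that dampens Kit signalling, fell by 0.64 (limma adjusted p = 0.0118). Both calls were lost after thinning to 3000 UMIs (0.084 and 0.278).

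Of 10 tested basement membrane genes, 9 rose (median 0.94, against -0.01 over all tested genes) and Nid1 did not pass the test (0.29, limma adjusted p = 0.229). Among those that rose, Col15a1 and Nid2 had reference means under the limit of 50 CPM. Both entered through the Apln-positive class, so they give the count and the median no separate support. Nid2 and Lamb1 were also counted among the tip cell genes above. Col4a1 and Col4a2, the chains of collagen IV, are encoded side by side in opposite directions on chromosome 8 and start close together, so their RefSeq promoter windows (GRCm38.p6, 250 bases before to 50 after each start) share 78 bases. They are shown because both genes rose. The capitals mark the shared bases, which read as reverse complements of each other.
Col4a1 (chr8:11312777-11313076, minus strand): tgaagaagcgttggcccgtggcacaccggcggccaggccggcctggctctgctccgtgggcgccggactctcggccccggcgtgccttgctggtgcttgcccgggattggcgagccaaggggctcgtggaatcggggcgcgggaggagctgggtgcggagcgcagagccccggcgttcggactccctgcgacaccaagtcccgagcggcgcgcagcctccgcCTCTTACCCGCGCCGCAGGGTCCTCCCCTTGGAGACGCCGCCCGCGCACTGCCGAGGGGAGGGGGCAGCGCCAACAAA
Col4a2 (chr8:11312555-11312854, plus strand): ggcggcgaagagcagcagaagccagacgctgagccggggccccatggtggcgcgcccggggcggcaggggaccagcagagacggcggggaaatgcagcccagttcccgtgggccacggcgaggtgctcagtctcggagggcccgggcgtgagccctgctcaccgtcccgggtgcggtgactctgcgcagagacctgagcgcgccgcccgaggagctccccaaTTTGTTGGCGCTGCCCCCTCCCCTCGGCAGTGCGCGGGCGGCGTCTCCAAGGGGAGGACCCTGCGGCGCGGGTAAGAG
Col4a1 stood at 1835, 2300.2, 2303, 2406 and 2479.7 CPM in Apln-positive cells and 1104, 1010.4, 987, 1340.2 and 996 CPM in reference cells, with no overlap (1.05 ± 0.09, limma adjusted p = 8.17e-06). Col4a2 stood at 1129, 1327, 984, 1128 and 1394 CPM against 704, 746, 468, 665 and 508 CPM, again with no overlap (0.95 ± 0.11, limma adjusted p = 6.34e-05). Nid2, which links laminin to collagen IV, stood at 61.6, 249, 129.5, 154 and 229.6 CPM against 32.2, 47.4, 23.6, 34.97 and 47.98 CPM, lowest in cKit-/DDR2+ (1.78 ± 0.19, limma adjusted p = 4.51e-05). The laminin chains Lamb1 (1.02), Lamc1 (0.92) and Lama4 (0.75), the matrix glycoprotein Sparc (0.85) and the heparan sulphate proteoglycan Hspg2 (0.54) rose as well, with limma adjusted p between 0.000444 and 0.00463. Collagen IV genes are also expressed by pericytes, whose markers are given below.

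Of 10 tested cytoskeletal genes 9 were higher and 1, Marcks, was lower (median 0.68). Tmsb10 stood at 1551, 4048, 3359, 3189.5 and 3377 CPM against 769, 1584, 830.1, 1048 and 1387 CPM (1.45 ± 0.12, limma adjusted p = 3.85e-05). Actb, beta-actin, stood at 5242, 8225, 7216, 6418 and 6821 CPM against 4169, 4388, 3686, 3759 and 4614 CPM, with no overlap (0.71 ± 0.08, limma adjusted p = 0.000152). Flna, the actin crosslinker filamin A to whose family Rflnb binds, rose by 0.87 (limma adjusted p = 0.00114). Vim rose by 0.86 (adjusted p = 0.0181 by limma), a call lost without cKit+/DDR2- replicate 2 (0.106) or cKit+/DDR2+/CD45- (0.0544). That of Marcks (-0.43), an actin-binding membrane protein, was lost without cKit+/DDR2- replicate 2 (0.0633), cKit+/DDR2+/CD45- (0.0594) or cKit+/DDR2+/CD45+ (0.0557). Of 11 guidance and adhesion genes 6 were higher and none lower (median 0.37). Besides Plxnd1 and Mcam they were the integrin chains Itga1 (0.63), Itga6 (0.42) and Itgb1 (0.37) and the guidance receptor Robo4 (0.39), with limma adjusted p between 0.00308 and 0.047. The calls were lost for Itga6 without cKit-/DDR2+ (0.0554), cKit+/DDR2- replicate 1 (0.121), cKit+/DDR2+/CD45- (0.0691) or cKit+/DDR2+/CD45+ (0.185), for Itgb1 without cKit+/DDR2- replicate 1 (0.0587), cKit+/DDR2+/CD45- (0.0764) or cKit+/DDR2+/CD45+ (0.105) and for Robo4 without cKit-/DDR2+ (0.0743), cKit+/DDR2- replicate 1 (0.0892), cKit+/DDR2+/CD45- (0.151) or cKit+/DDR2+/CD45+ (0.131).

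Genes of mature capillaries were lower. Of 8 tested capillary genes 7 fell and none rose, with a median of -1.03. The reference required Gpihbp1, itself a capillary gene, but 61 of 62, 47 of 47, 23 of 24, 59 of 60 and 27 of 31 Apln-positive cells carried it too, and Gpihbp1 stood at 1762, 1751, 1631, 1588 and 1519.5 CPM against 1719, 1487, 1391, 1898 and 1515 CPM. With Gpihbp1 required in both classes, 300 genes were higher and 358 lower. Rbp7, a retinol-binding protein of capillaries, stood at 715, 300.4, 744, 874 and 267 CPM in Apln-positive cells and 2309, 1124, 2057, 2247 and 1399 CPM in reference cells, with no overlap (-1.74 ± 0.13, limma adjusted p = 5.38e-06). Rgcc, a cell cycle regulator abundant in heart capillaries, stood at 387, 252, 297, 195 and 213 CPM against 1024, 670.1, 537, 852 and 592 CPM, with no overlap (-1.42 ± 0.14, limma adjusted p = 3.85e-05). Timp4 (-1.44), Car4 (-1.14), Aqp7 (-0.92), Cd300lg (-0.84) and Cd36 (-0.52) were called too, while Btnl9 had -0.39 (limma adjusted p = 0.0916). For Car4 the limma adjusted p reached 0.126 among 28 alternative settings. The call of Cd36, a fatty acid transporter, was lost without cKit+/DDR2- replicate 2 (0.0909) or cKit+/DDR2+/CD45+ (0.0559), with limma adjusted p in parentheses.

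Heart capillaries pass fatty acids to the muscle, and 4 of 6 tested genes of that list fell (median -0.56). Lpl, lipoprotein lipase, stood at 877, 311, 441, 456 and 292 CPM against 979, 804, 1189, 1200.3 and 956 CPM (-1.19 ± 0.20, limma adjusted p = 0.00402). The groups did not overlap except in cKit-/DDR2+, where the Apln-positive level was above the reference level of cKit+/DDR2- replicate 1. Tcf15, a transcription factor of fatty acid uptake, stood at 537, 228, 206, 236 and 196 CPM against 804, 522, 426, 647 and 559.8 CPM (-1.12 ± 0.13, limma adjusted p = 5.9e-05). Pparg, a nuclear receptor of lipid storage, fell by 0.59 (limma adjusted p = 0.0299), a call lost without cKit+/DDR2- replicate 1 (0.103) or cKit+/DDR2+/CD45- (0.163). The partner of Tcf15, Meox2, had 0.03 and the lipid chaperone Fabp5 0.17, neither past the test (limma adjusted p 0.913 and 0.256). Cxcl12, a chemokine of capillary and arterial endothelium, stood at 1211, 444, 609, 609 and 722 CPM against 2829.6, 1101, 1288, 1935 and 1643 CPM and was lower within every library (-1.28 ± 0.09, limma adjusted p = 5.38e-06).

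Signalling through TGF-beta and bone morphogenetic proteins (BMP) keeps endothelium quiescent, and 8 of the 11 tested genes of that list fell while Tgfb1 rose (0.58). The receptors Acvrl1 and Eng stood at 176, 33.4, 52.8, 50.97 and 70.97 CPM against 245, 159, 168, 159 and 199.9 CPM and at 648, 369.7, 350.3, 348 and 326 CPM against 783, 940.3, 936, 668 and 908 CPM. Log2 differences were -1.35 ± 0.18 for Acvrl1 and -1.07 ± 0.16 for Eng (limma adjusted p 0.000224 and 0.000916). Both Apln-positive levels were closest to the reference in cKit-/DDR2+. The target Smad7 (-1.57), an inhibitor of the pathway, and the targets Id1 (-0.75) and Id2 (-1.11) were lower, with limma adjusted p between 0.000419 and 0.00145. The receptors Bmpr2 (-0.91) and Tgfbr2 (-0.72) passed too (limma adjusted p 0.0353 and 0.0491), and their calls were lost without cKit+/DDR2- replicate 1 (0.102) or cKit+/DDR2+/CD45- (0.0939) and without cKit-/DDR2+ (0.064), cKit+/DDR2- replicate 1 (0.12), cKit+/DDR2- replicate 2 (0.102) or cKit+/DDR2+/CD45+ (0.106). Bmp6 (-1.19, limma adjusted p = 0.0495) lost its call without cKit+/DDR2- replicate 1 (0.127), cKit+/DDR2- replicate 2 (0.105), cKit+/DDR2+/CD45- (0.162) or cKit+/DDR2+/CD45+ (0.0864), and without the shared barcodes (0.05004).

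Klf2 and Klf4, transcription factors induced by laminar flow, were both lower. Klf2 stood at 1451, 732, 528, 488 and 676 CPM in Apln-positive cells and 2684, 1582, 1690.3, 1381 and 1715 CPM in reference cells (-1.29 ± 0.10, limma adjusted p = 5.38e-06). It was lower within each library, and levels were highest in cKit-/DDR2+ in both classes. Klf4 stood at 654, 264, 264, 162 and 242 CPM against 1026, 713, 971, 542 and 664 CPM (-1.40 ± 0.15, limma adjusted p = 5.87e-05). Both also belong to a list of 16 immediate early genes, which enzymatic digestion can induce, and 10 of these fell while none rose (median -0.69). They include Dusp1 (-1.17), Nr4a1 (-1.04), Jun (-0.88) and Fos (-0.88), while Egr1 (-0.38), Atf3 (-0.59) and Junb (-0.19) did not pass (limma adjusted p 0.24, 0.142 and 0.238). The calls of 3 of the 10 were lost when some library was left out: of Fos without cKit-/DDR2+ (0.0617) or cKit+/DDR2+/CD45- (0.102), of Fosb without cKit+/DDR2- replicate 1 (0.079), cKit+/DDR2- replicate 2 (0.0993) or cKit+/DDR2+/CD45- (0.0883) and of Btg2 without cKit+/DDR2- replicate 1 (0.0653), cKit+/DDR2+/CD45- (0.0836) or cKit+/DDR2+/CD45+ (0.118). That of Nr4a1 was lost after thinning to 3000 UMIs (0.153). The part of digestion in the differences of Klf2 and Klf4 was not tested.

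Among the genes with the lowest differences, 6 (Igfbp5, Vwf, Cytl1, Bgn, Cpe and Mgst1) stood higher in the endocardial gate (1853 cells) than in the reference cells of the same library, in all 5. There Vwf, the clotting factor of endothelial granules, stood at 2448, 2016, 2308, 2117 and 1670.3 CPM. In Apln-positive cells Vwf stood at 29.3, 17.97, 192, 32.4 and 4.17 CPM, against 68.5, 581, 755, 207 and 256 CPM in reference cells, lower within each library (-2.78 ± 0.61, limma adjusted p = 0.0354). With Npr3 at 0 in both classes the differences were -2.53 for Vwf, -1.57 for Bgn and -2.71 for Igfbp5, and the last was no longer called (limma adjusted p = 0.0733). The calls of these 3 genes were also lost when some library was left out. Those of Vwf and Bgn were lost without cKit+/DDR2- replicate 2 or either double-positive library (adjusted p 0.0747 to 0.109 and 0.113 to 0.131 by limma). That of Igfbp5 was lost without cKit+/DDR2+/CD45- (0.0907).

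Stmn2, Slc6a6, Slc26a10 and Cdkn1c stood below the reference in the endocardial gate as well. Stmn2, on the list of arterial genes, stood at 61.6, 0, 4.80, 32.4 and 4.17 CPM in Apln-positive cells and 324, 51.5, 217, 175 and 176 CPM in reference cells (-2.92 ± 0.27, limma adjusted p = 3.85e-05). At 3000 UMIs per cell it was found in 5 of 48, 0 of 45, 0 of 22, 3 of 59 and 1 of 24 Apln-positive cells, and in 12.9% to 40% of reference cells. Slc6a6, the taurine transporter, stood at 369, 35.9, 91.2, 55.6 and 25.05 CPM against 760.01, 309, 556, 525 and 456 CPM, lower in every library and least so in cKit-/DDR2+ (-2.61 ± 0.38, limma adjusted p = 0.00692, and 0.064 after thinning to 3000 UMIs). Cdkn1c, an inhibitor of the cell cycle, stood at 255, 53.9, 129.5, 81.9 and 70.97 CPM against 494, 311, 443, 459 and 408 CPM, with no overlap (-1.93 ± 0.20, limma adjusted p = 0.00021). S100a6 (-2.02), Slc26a10 (-1.96), Mgst1 (-1.86) and Cpe (-1.86) were among the lowest 12 too. Igfbp5, Stmn2, Cytl1, Bgn, Mgst1 and Cpe had Apln-positive means of 14.5 to 34.2 CPM. They passed the limit of 50 CPM only through the reference class. Of the tested arterial genes 1 of 5 was called, near the 21.4% of all tested genes (Hey1 and Fbln5 were lower too at a limit of 20 CPM). Of the venous genes it was 2 of 5, Nr2f2 (-1.36, limma adjusted p = 0.0467) and Vwf. The call of Nr2f2, a venous transcription factor, was lost without any one of the 4 cKit+ libraries (limma adjusted p 0.0832 to 0.113).

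Of 6 cell cycle genes tested at 50 CPM, 1 rose, 2 fell and 3 were not called. Transcripts of dividing cells were found in a larger share of Apln-positive than of reference cells. A UMI of Mki67, Top2a, Cdk1, Ccnb1, Birc5 or Rrm2 was found in 4.84%, 14.9%, 16.7%, 20% and 12.9% of them, against 2.71%, 5.48%, 3.85%, 5.51% and 8% of reference cells, at the unequal depths given above. At 3000 UMIs per cell the shares were 2.08%, 8.89%, 13.6%, 15.3% and 8.33% against 1.81%, 4.84%, 1.78%, 2.80% and 6.25%. They rest on 1 of 48, 4 of 45, 3 of 22, 9 of 59 and 2 of 24 Apln-positive cells. In reference cells the counts were 14 of 775, 3 of 62, 4 of 225, 11 of 393 and 2 of 32. The Apln-positive share was the higher in each library, but so few cells leave the size of the difference uncertain. Ccnd1, cyclin D1, stood at 779.9, 701, 691, 675 and 776 CPM against 334, 353, 255, 359 and 364 CPM with no overlap (1.11 ± 0.10, limma adjusted p = 1.48e-05). The inhibitors Cdkn1c and Cdkn1a (-0.84, limma adjusted p = 0.00528) fell. Cdkn1a was nearly level in cKit+/DDR2+/CD45+ (-0.01), and its limma adjusted p reached 0.237 among 28 alternative settings. Pcna (0.56, adjusted p = 0.177), Hmgb2 (0.86, 0.165) and Stmn1 (0.76, 0.585) were not called by limma. Most genes of the S and G2/M phases lay under 50 CPM. Of 7 of these tested at 20 CPM, 5 rose and 2 were not called. The limit was set on the mean over both classes. Reference means of Mki67 (8.19 CPM), Cdk1 (6.09), Mcm5 (10.2), Mcm6 (14.0) and Top2a (8.90) lay under it. These genes entered the test only through the Apln-positive class, so their count gives no separate support. Mki67 (1.35), Cdk1 (1.32), Tyms (1.06), Mcm3 (0.80) and Mcm5 (0.96) rose, with limma adjusted p between 0.00884 and 0.0455, while Top2a had 1.16 (adjusted p = 0.336) and Mcm6 0.80 (adjusted p = 0.226 by limma). Without the cells that carried such a UMI, 277 genes were higher and 322 lower.

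None of 9 tested glycolysis genes was called by limma, 1 had an unadjusted p under 0.05, and their median was 0.04. Ldha, lactate dehydrogenase, had -0.01 and the pyruvate kinase Pkm 0.29, the last with a limma adjusted p of 0.15. Of 7 hypoxia targets Adm rose, and Ndrg1 (-0.69, limma adjusted p = 0.00518, and 0.0589 after thinning to 3000 UMIs) and Bnip3 (-0.68, adjusted p = 0.0129 by limma) fell. The call of Bnip3 was lost without cKit+/DDR2- replicate 1 (0.0503) or cKit+/DDR2+/CD45- (0.0761). Of 80 ribosomal protein genes 27 rose and none fell (median 0.17), and 5 of 8 mitochondrially encoded genes rose (median 0.18), of which 4 lost the call when some library was left out.

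Of 9 tested genes shared by all endothelium, 1 rose and 4 fell. The tight junction gene Cldn5 stood at 1431, 1959, 2246, 1441 and 1453 CPM against 754, 1237, 674, 881 and 1019.6 CPM and rose within each library (0.90 ± 0.16, limma adjusted p = 0.00457). Esam, a junction protein, stood at 795, 788, 494, 489.6 and 685 CPM against 825, 649.5, 533, 591 and 628 CPM (-0.01, adjusted p = 0.979 by limma). Emcn (-0.69), Egfl7 (-0.49), Tek and Eng fell. Among 28 alternative settings the limma adjusted p reached 0.139 for Egfl7, 0.0989 for Emcn and 0.0898 for Tek. Cdh5 and Pecam1, used in the rule, stood at 1281, 981, 912, 914 and 964 CPM against 1117, 955, 918, 1103 and 892 CPM and at 821, 711, 609, 687 and 731 CPM against 724, 800.05, 882, 752 and 576 CPM.

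Markers of other cell types were present in both classes, at levels that varied by library. Summed over the pericyte list (9 genes) they came to 321 to 1198 CPM in Apln-positive cells and 332 to 1541 CPM in reference cells, higher in Apln-positive cells of 2 of 5 libraries. Fibroblast markers (8 genes) came to 5.13 to 827 against 95.7 to 1123 CPM, and macrophage markers (8 genes) to 0 to 1407 against 8.16 to 3615 CPM, each higher in 1 library. The highest macrophage values of both classes, 1407 and 3615 CPM, were in cKit+/DDR2+/CD45+. Endocardial genes came to 37.6 to 427 against 164 to 1210 CPM and lymphatic genes to 41.0 to 79.6 against 50.4 to 2767 CPM, lower in Apln-positive cells of all 5 libraries. The highest lymphatic value, 2767 CPM in reference cells of cKit+/DDR2- replicate 1, lay above the Gpihbp1 level of the same cells (1487 CPM). Arterial genes came to 341 to 475 against 544 to 1352 CPM, also lower in all 5. The pericyte markers Kcnj8 and Cspg4 were at 0 in Apln-positive cells of cKit-/DDR2+, and Vtn, Cspg4 and Notch3 in those of both cKit+/DDR2- libraries. Vtn, Cspg4 and Notch3 were also at 0 in reference cells of cKit+/DDR2- replicate 1. Apln-positive sums hold only 24 to 62 cells, so low genes can reach 0 in them by counting error. Smooth muscle markers (4 genes) came to 0 to 77.2 against 16.0 to 71.1 CPM, cardiomyocyte markers to 28.2 to 141 against 99.96 to 219.5 CPM and venous genes to 314 to 683 against 519 to 1459 CPM. Of the marker genes past the limit of 50 CPM, none of 1 pericyte, 3 macrophage and 1 lymphatic gene was called. Of 2 fibroblast genes Gsn fell (-0.78, limma adjusted p = 0.0356) and Dcn was not called (-1.27, 0.375). The call of Gsn was lost without cKit+/DDR2- replicate 1 (0.0647), cKit+/DDR2- replicate 2 (0.0841) or cKit+/DDR2+/CD45+ (0.0719). In the test at 20 CPM, 2 of 3 further pericyte genes, Abcc9 (-1.02, limma adjusted p = 0.0207) and Ndufa4l2 (-0.74, 0.0479), and 1 of 3 lymphatic genes, Lyve1 (-1.51, limma adjusted p = 0.0453), were lower in Apln-positive cells. The part of these cell types in the differences was not tested. With Kcnj8, Abcc9, Vtn and Pdgfrb at 0 in every cell of both classes, 285 genes were higher and 327 lower.

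Levels near the threshold are given as a description. Just outside it lay 31, 11, 14, 50 and 6 gated cells with Apln above 0, at median values of 0.775, 0.742, 0.817, 0.757 and 0.755, with 1 Apln UMI in 29, 11, 11, 43 and 4 of them and deeper than the cells inside (median 8833, 9085, 8852, 10082 and 11315 UMIs). In cKit+/DDR2+/CD45-, Fscn1 stood at 303, 489, 487 and 773 CPM in cells with Apln under 1, from 1 to 1.5, from 1.5 to 2 and at 2 or more. Col4a1 stood at 2116, 1982, 2711 and 2749.7 CPM and Kit at 108, 106, 112 and 239 CPM in the same order. Klf2 went the other way, at 790.2, 592, 454 and 375 CPM, from 1381 CPM in reference cells. In cKit-/DDR2+, Klf2 stood at 2130.1, 1741, 1169.6 and 772 CPM and Col4a1 at 1276, 1471, 1732 and 3482 CPM, so Klf2 fell from bin to bin in both libraries, and Col4a1 rose from bin to bin in cKit-/DDR2+ but not between the lowest bins of cKit+/DDR2+/CD45-. The upper bin of that library holds 10 cells.

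**Figure D5:**
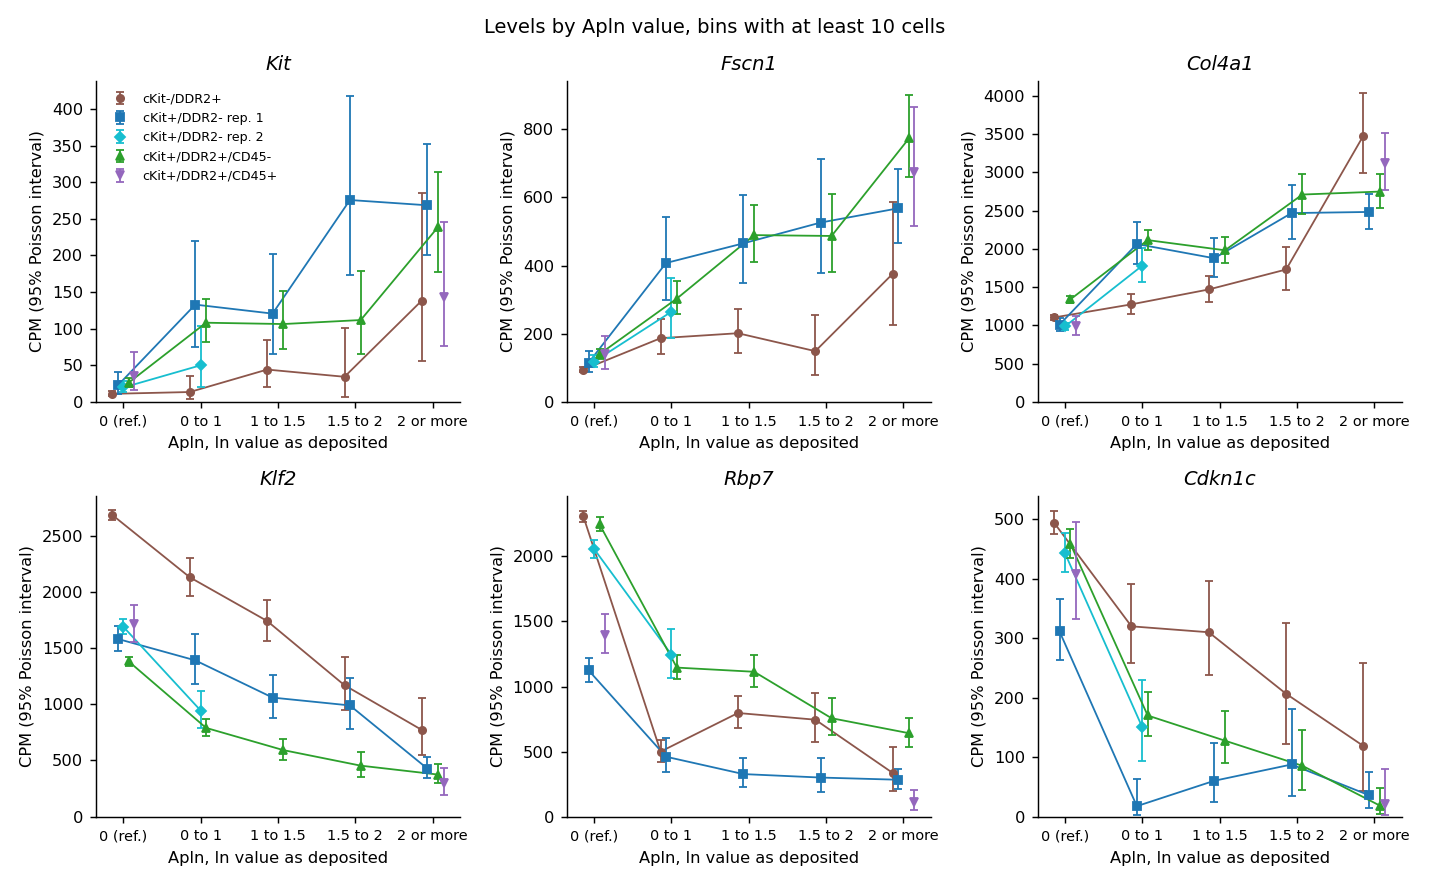
Levels (y axis, CPM with 95% Poisson intervals) of 6 genes in reference cells and in 4 bins of Apln (x axis, deposited natural log value), by library, for bins of at least 10 cells; lines join neighbouring bins. Fscn1 and Col4a1 lie higher, and Klf2 and Cdkn1c lower, at Apln of 2 or more than in reference cells, in the 4 libraries with such a bin.

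Across 20 sums (Apln-positive, reference, endocardial and lymphatic cells of each library), the called genes whose log2(CPM + 10) was most like that of Apln were Rell1 (Pearson r = 0.902), Tmsb10 (0.870), Lxn (0.867), Adm (0.864) and Cdk6 (0.858). The sums share libraries and the rule itself sets Apln, so these are descriptions. Rell1 stood at 79.2, 123, 125, 109.7 and 96.02 CPM in Apln-positive cells and 38.02, 32.99, 36.4, 53.1 and 55.98 CPM in reference cells, and Cdk6, a kinase of the G1 phase, at 55.7, 69.3, 62.4, 74.1 and 113 CPM against 27.5, 20.6, 24.9, 31.2 and 35.99 CPM. Both were separate between the classes in all 5 libraries. Their reference means, 43.3 and 28.0 CPM, lay under the limit of 50 CPM, so both entered the test through the Apln-positive class.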

How the data were processed

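Single cells from 5 libraries were analysed. The submitters' processing notes name Cell Ranger, Seurat 4.0.4 and the build mm10; the role of each is not given in the sources used here. The values the authors deposited are natural log values of 1 plus UMIs scaled to 10000 per cell. UMIs were recovered from them (100% whole within 0.01) and summed over cells. Genes missing from a library's table were set to 0 in it. The gate, its cut-offs and the gene lists were chosen with earlier results of these data known. Sums per class and library were scaled to CPM. Because the deposited unit is a natural log and not a count, no count model was used: log2(CPM + 10) was fitted with limma 3.58.1 in R 4.3.3 (trend, robust moderation, library as block), for genes with a mean of at least 50 CPM in 5 libraries with at least 10 cells per class. The fit was also run on simulated sums, drawn for every library from the same profile with added noise. The spread between the real libraries was not copied, so this run does not give the error rate for these data. Python 3.11.15, numpy 2.4.6, scipy 1.17.1, pandas 2.3.3 and matplotlib 3.10.9 were used. Intervals are 95% Clopper-Pearson (shares) or Poisson (CPM) and cover counting error only. Doublets were not called; an alternative left out cells above the 95th percentile of UMIs.

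Genes named are those of the rule, the 5 markers, the 12 highest and 12 lowest log2 differences among genes called with the same sign in every library, and up to 4 tested genes of each of 31 lists with the largest differences. Mitochondrial, ribosomal protein, haemoglobin, Y-linked and predicted genes and Xist were left out of the 12. Of the lowest 12, 1 gene is not reported here. Other genes are named where the text counts a list or describes a pattern, and were chosen after their values were seen. No smooth muscle or cardiomyocyte marker passed 50 CPM. Promoters and positions are RefSeq entries on GRCm38.p6, the assembly named mm10.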

Additional observations from a re-analysis of the deposited data

Results flagged for a closer look

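Among 28 genes looked at (the rule's further markers and the 24 leading genes), 1 had a library far from the others. The log2 difference of Nid2 was 0.76 in cKit-/DDR2+ against 1.87 to 2.17 in the other 4 libraries. The gap to the nearest library was 0.786 of the whole range, above the limit for 5 values. Chance gives such a gap in about 1 of 20 groups. Nid2 stood at 61.6, 249, 129.5, 154 and 229.6 CPM in Apln-positive cells.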

How the results depend on the processing

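In place of 303 higher and 361 lower genes, 110 and 123 were called with no filter on low values (15361 genes tested; 88 and 89 shared), 201 and 238 with the mean over cells in place of sums (190 and 221 shared), and 154 and 183 after thinning to 3000 UMIs (143 and 166 shared). With no library block 209 genes were higher and 208 lower, of which 209 and 204 were shared with the fit that pairs the classes of a library. With 1 library left out, 190 to 358 were higher and 216 to 381 lower. Scaling to the median of ratios gave 340 and 325, and moved the share of higher genes from 45.6% to 51.1% of calls. The other alternatives kept both counts within 1.5 times. The share of Apln-positive cells moved to 25.2% in cKit+/DDR2- replicate 1 at 2000 UMIs and to 32.5% in cKit+/DDR2+/CD45+ among cells with Gpihbp1. For the 24 leading genes, 621 of 660 pairs of gene and alternative kept the call and 39 lost it, none with a change of sign. Of the lost calls, 12 each were of Vwf and Bgn. The pairs are not all separate. A limit of at least 5 cells per class left the fit unchanged, as every class held more. A limit of at least 30 cells gave the same fit as leaving out cKit+/DDR2- replicate 2. Of 80 called genes with alternatives, 25 lost the call when some library was left out. Leaving out shared barcodes, cycling cells, cells with Npr3 or cells under 5000 UMIs, and moderation without the robust step, were chosen after seeing the data. The cause of these changes was not tested. With 24 to 62 Apln-positive cells per library, genes under 50 CPM are thinly counted.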

Other observations

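Of 10 tested interferon response genes 1 rose, against 9.76% of all tested genes. It was Cxcl9, a chemokine (1.25, limma adjusted p = 0.00947, and 0.0529 without cKit+/DDR2+/CD45+). Cxcl9 stood at 38.1, 151, 57.6, 173 and 100.2 CPM against 9.75, 18.6, 48.5, 99.8 and 27.99 CPM. Its reference mean, 40.9 CPM, lay under the limit of 50 CPM, so it entered through the Apln-positive class. The guanylate-binding proteins Gbp4 (-0.88) and Gbp7 (-0.36) and the GTPase Iigp1 (-0.52) fell, with limma adjusted p between 0.0045 and 0.0477. The call of Iigp1 was lost without cKit+/DDR2- replicate 1 (0.0763) or cKit+/DDR2+/CD45- (0.0948), and that of Gbp7 without cKit-/DDR2+ (0.0581), cKit+/DDR2- replicate 2 (0.126), cKit+/DDR2+/CD45- (0.145) or cKit+/DDR2+/CD45+ (0.149). Of 3 tested MHC class II genes H2-Aa (-1.13) and H2-Ab1 (-0.73) fell, calls that were lost for H2-Aa without cKit+/DDR2- replicate 2 (0.0747) or cKit+/DDR2+/CD45- (0.144) and for H2-Ab1 without cKit+/DDR2- replicate 2 (0.0935) or cKit+/DDR2+/CD45- (0.12) (limma adjusted p). Macrophages also express these genes; their markers were lower in Apln-positive cells of 4 libraries, and their part in the difference was not tested.

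Thbd, the anticoagulant receptor thrombomodulin, stood at 196, 35.9, 33.6, 74.1 and 25.05 CPM against 250.02, 175, 318, 218 and 136 CPM, lower within each library (-1.75, limma adjusted p = 0.00788, and 0.0554 without cKit+/DDR2+/CD45+). Igfbp7, a secreted binding protein of activated endothelium, rose (0.83, limma adjusted p = 0.0119, and 0.085 without cKit+/DDR2- replicate 2). Of 10 heat shock genes 2 were called, near the 21.4% of all tested genes. Hspa8 (0.26) and Hspe1 (0.35) rose. The call of Hspa8 was lost without cKit+/DDR2- replicate 2 (0.0559), cKit+/DDR2+/CD45- (0.0966) or cKit+/DDR2+/CD45+ (0.0807). That of Hspe1 was lost without cKit+/DDR2- replicate 1 (0.0515), cKit+/DDR2- replicate 2 (0.0881), cKit+/DDR2+/CD45- (0.149) or cKit+/DDR2+/CD45+ (0.0782) (limma adjusted p). Cd44, a hyaluronan receptor, was higher in all 5 libraries in the test at 20 CPM (1.24, limma adjusted p = 0.0014). Its reference mean, 14.2 CPM, lay under that limit, so it entered through the Apln-positive class.

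The letters CACCC, the core bound by Klf factors (GGGTG on the other strand), occur in the RefSeq promoter windows of 75% of the genes called lower (207 of 276 with a window) and 68.1% of those called higher, against 65.8% of tested genes and 57.5% of all windows. The letters ACGTG, a hypoxia response core (CACGT on the other strand), occur in 27.9% and 27.7%, against 29.9% of tested genes and 19.6% of all windows. These shares were not tested. Xist UMIs occur in cKit+/DDR2- replicate 2 and cKit+/DDR2+/CD45- but at 0 in both classes of the other 3 libraries, so Apln, an X-linked gene, was read in libraries that differ in Xist.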
